A study of Mus musculus with 24 samples.

Results

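The acute-phase response genes Saa1, Saa2, Saa3, Orm1, Orm2, Hp, Lcn2, Crp, Apcs and Hamp were followed across 24 libraries of fasted mouse liver. They were taken by gene name from the deposited count table, which gave 10 rows of 35275, and all 10 passed the filter on low counts. Liver RNA of male C57BL/6 mice, 8 to 10 weeks of age and fasted for 24 hours, was sequenced from 6 genotypes with 4 libraries each. The first 4 genotypes cross a deletion of Tsc1, the brake on mTorc1, with a deletion of Cpt2, a mitochondrial enzyme required to oxidize long-chain fatty acids. They are control (labelled wild type, and in the study littermates with floxed alleles), Tsc1 L-/-, Cpt2 L-/- and Tsc1Cpt2 L-/- (DKO). The L-/- deletions were driven by a Cre under the albumin promoter, so they act in hepatocytes. The remaining genotypes are PPAR-a KO, without the nuclear receptor that drives the fasting program of fat oxidation, and Cpt2L-/- Ppara KO, which lacks both. How the Ppara allele was made, and whether its loss is limited to the liver, is not given in the sources used here. The labels do not say in so many words that each library is a separate mouse, so p-values measure the spread between these libraries.

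The acute phase is the liver's secretory answer to infection or injury. Interleukin-6 from macrophages acts on hepatocytes through gp130 and Stat3, while interleukin-1 and tumor necrosis factor act through NF-kB and the C/EBP factors. Serum amyloid A (Saa1 and Saa2) rises most steeply and travels on high-density lipoprotein, and Saa3 is also made by macrophages and fat. Orm1 and Orm2 encode alpha-1-acid glycoprotein, Hp the hemoglobin scavenger haptoglobin, and Lcn2 an iron-withholding siderophore binder. Crp and Apcs are pentraxins that bind microbial and damaged surfaces. In mice Apcs is the inducible pentraxin and Crp responds little. Hamp encodes hepcidin, the hormone that closes the iron exporter ferroportin, and it listens to bone morphogenetic proteins as well as to Stat3.

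Total counts ranged from 14470968 to 20371204 per library. The lowest count of a member in any library was 23 for Lcn2 and 37 for Saa3, and Hp never fell below 6089, so counting error was small beside the spread between libraries. Tsc1 was at 36.8 to 39.9 CPM in the control group and at 15.5 to 28.6 CPM in the 8 libraries with its deletion. CPM here are counts scaled to the library size, with TMM factors over the 24 libraries. Cpt2 counts did not separate the libraries labelled Cpt2 L-/- (80.3 to 105 CPM) from control (87.8 to 104 CPM), and the counts do not resolve exons. Ppara was at 213 to 276 CPM in control, 13.0 to 45.2 CPM in PPAR-a KO and 26.2 to 91.9 CPM in Cpt2L-/- Ppara KO. The first library labelled Cpt2L-/- Ppara KO stood apart from its group. It held the Ppara target Cyp4a14 at 3102 CPM without TMM, against 171 to 333 CPM in the other 3, and Cpt2 at 120 CPM, against 31.7 to 42.3 CPM. Its Tsc1, at 24.3 CPM, lay within the range of the Tsc1 deletions, while the other 3 were at 42.4 to 50.6 CPM. The first library labelled PPAR-a KO also held more Cyp4a14 (62.3 CPM without TMM, against 3.93 to 19.4 CPM) and more Cpt2 (103 CPM, against 33.1 to 46.9 CPM). Fold changes of members and counts of called genes in the Ppara comparisons are therefore also given without both libraries. Replicate 3 of Tsc1 L-/- stood apart from its group too, with Cyp4a14 at 551 CPM without TMM against 4004 to 5488 CPM, and Ehhadh at 153 CPM against 770 to 1706 CPM. Without it the same members were called in Tsc1 L-/- against control (Hp) and in DKO against Tsc1 L-/- (Saa3, Hp and Crp). Cd1d2, chosen after its values were seen, was at 0.0643 to 0.755 CPM in all 12 libraries labelled Cpt2 L-/-, PPAR-a KO or Cpt2L-/- Ppara KO, and at 11.8 to 57.9 CPM in the other 12 (without TMM). The labels give the strain C57BL/6 for all. Cpt2 L-/- and PPAR-a KO against control, DKO against Cpt2 L-/- and both interactions set libraries of one side against the other, and there a difference of strain or cohort cannot be told apart from the genotypes. The other comparisons lie within a side. All 7 hepatocyte markers were detected in every library, with a summed level of 65690 to 85710 CPM in control and 30280 to 38330 CPM in DKO. Alb was the largest part of this sum (mean 43410 CPM in control and 12720 CPM in DKO). Alb, Ttr and Apoa1 are also in the list of negative acute-phase proteins given below.

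Expressed per length, as FPKM (counts scaled to gene length and library size), haptoglobin was the most abundant member in control liver at 2493 ± 356 FPKM (SD, n = 4). Hamp followed at 1043 ± 661, Saa1 at 951 ± 1142, Orm1 at 648 ± 408 and Saa2 at 612 ± 838 FPKM (SD, n = 4 each), and these 4 did not differ beyond their spread. Crp was at 185 ± 23.5, Orm2 at 63.7 ± 86.7, Apcs at 56.5 ± 17.3, Saa3 at 21.5 ± 4.95 and Lcn2 at 10.5 ± 13.0 FPKM (SD, n = 4 each). The order was different in DKO liver. There Hamp led at 1325 ± 396 FPKM, followed by Orm1 at 439 ± 144 and Hp at 368 ± 102, the last 2 within their spread, while Saa1 was at 35.6 ± 23.4 FPKM (SD, n = 4 each).

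Saa1 and Saa2 lie back to back on chromosome 7 of GRCm38, Saa1 on the minus strand from 46740501 to 46742980 and Saa2 on the plus strand from 46751833 to 46754314. Their promoters are shown because the 2 genes moved together in nearly every library. The windows are the 250 bases before the start site from RefSeq, in build GRCm38.p6, at chr7:46742981-46743230 (minus strand) and chr7:46751583-46751832 (plus strand). Capitals mark matches to TTNNGNAA, the letters searched on both strands for C/EBP factors.
Saa1: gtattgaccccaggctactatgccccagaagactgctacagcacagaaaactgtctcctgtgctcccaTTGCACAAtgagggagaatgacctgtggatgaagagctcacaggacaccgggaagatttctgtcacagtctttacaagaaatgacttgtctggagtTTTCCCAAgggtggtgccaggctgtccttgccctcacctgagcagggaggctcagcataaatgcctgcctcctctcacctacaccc
Saa2: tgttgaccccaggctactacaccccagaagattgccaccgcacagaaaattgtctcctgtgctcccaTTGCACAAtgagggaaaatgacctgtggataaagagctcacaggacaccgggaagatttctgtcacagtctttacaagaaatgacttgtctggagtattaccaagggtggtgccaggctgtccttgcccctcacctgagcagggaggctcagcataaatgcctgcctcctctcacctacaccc
The windows were identical at 94.8% of 251 aligned positions, whereas Saa1 and Saa3 shared 52.2% of 295. The C/EBP letters occurred in 6 of the 8 members with a window (Saa1, Saa2, Saa3, Orm2, Lcn2 and Crp) and in 36.8% of all 32851 promoters in the table. Hp and Orm1 had no window in it.

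Hamp, on the minus strand of chromosome 7 from 30942371 to 30944017, is shown with its neighbor Hamp2 because the 2 genes share sequence but not their levels. The windows lie at chr7:30944030-30944279 and chr7:30924182-30924431, both on the minus strand. Capitals mark TTCNNNGAA, the letters searched for Stat factors, and in Hamp also GGCGCC, a bone morphogenetic protein response element.
Hamp: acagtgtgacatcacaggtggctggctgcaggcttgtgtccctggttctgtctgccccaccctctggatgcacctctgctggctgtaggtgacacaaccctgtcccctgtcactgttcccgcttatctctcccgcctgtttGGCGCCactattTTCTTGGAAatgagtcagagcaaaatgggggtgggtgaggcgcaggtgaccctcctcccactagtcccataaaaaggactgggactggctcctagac
Hamp2: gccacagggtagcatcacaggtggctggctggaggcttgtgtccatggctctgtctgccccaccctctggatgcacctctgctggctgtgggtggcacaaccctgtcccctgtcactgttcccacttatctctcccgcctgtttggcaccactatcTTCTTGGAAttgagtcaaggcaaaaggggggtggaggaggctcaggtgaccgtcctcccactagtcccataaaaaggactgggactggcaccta
The 2 windows were identical at 89.7% of 253 aligned positions. The Stat letters began 97 bases before the Hamp start site and 94 before that of Hamp2. Among members they also occurred in Apcs, and 7.02% of all promoters held them. GGCGCC was found in Hamp alone of the 8 members and in 9.59% of all promoters. GGANTTTCC, searched on both strands for NF-kB, was in none of the 8 windows and in 1.065% of all promoters. Other spellings of an NF-kB site were not searched, so the result does not show that such sites are absent. None of the marked matches overlapped another.

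The fold changes of the members were read from fits over the whole table. In Tsc1 L-/- liver 1 of the 10 genes fell, haptoglobin, and none rose. Among all 13641 genes of that comparison 4.16% were called higher and 2.48% lower than control. The median log2 fold change of the 10 genes was −0.45, against 0.01 over all genes, and it became 0.48 without control replicate 1.

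In Cpt2 L-/- liver 3 of the 10 genes fell (Saa3, Hp and Crp) and none rose, with 16.2% of all genes called higher and 14.9% lower. The median log2 fold change was −0.86 for the members, against −0.02 for all genes, and −0.27 without control replicate 1. In DKO liver 4 fell (Saa1, Saa3, Hp and Crp) and none rose, with 19.3% of all genes higher and 17.1% lower. The median was −1.76, against 0.02 for all genes, and it moved to −0.86 without control replicate 1. Control is shared by these 3 comparisons, so their directions are not independent.

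Set against the single deletions, DKO liver had less Hp than Cpt2 L-/- liver, which was the only member called there, with 10.9% of all genes higher and 7.4% lower. Against Tsc1 L-/- liver 3 members were lower in DKO (Saa3, Hp and Crp), with 16.9% of all genes higher and 15.2% lower. The test of whether the 2 deletions add up on the log scale, the interaction of Tsc1 and Cpt2, called 0 members in edgeR. It also called 0 in DESeq2, and 0 reached an unadjusted p-value under 0.05. Over all genes that interaction called 1.09% higher and 1.28% lower.

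In PPAR-a KO liver Hp and Hamp were higher than in control, 2 of 10, and none was lower, with 15.9% of all genes higher and 13.2% lower. In Cpt2L-/- Ppara KO liver 3 of 10 (Lcn2, Apcs and Hamp) were higher than in Cpt2 L-/- liver, with 10.3% of all genes higher and 8.01% lower. Against PPAR-a KO liver the same Cpt2L-/- Ppara KO libraries had 1 member lower, Hp, with 12.9% of all genes higher and 12.6% lower. Without the first libraries of both Ppara groups, Hp and Hamp were higher and Crp was lower in PPAR-a KO than in control, with 20.3% of all genes higher and 17.5% lower. Lcn2, Apcs, Hamp and Hp were then higher in Cpt2L-/- Ppara KO than in Cpt2 L-/- and none was lower, with 7.71% of all genes higher and 7.22% lower. Against PPAR-a KO, Crp and Apcs were higher and Hp was lower, with 10.1% of all genes higher and 11% lower. The interaction of Cpt2 and Ppara called 0 members in edgeR, with 3 at an unadjusted p-value under 0.05, 2 in DESeq2 and 2 without the first libraries, Crp and Apcs, both higher. Over all genes it called 12% in each direction, and 13.2% higher and 14.1% lower without the first libraries.

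**Figure D1:**
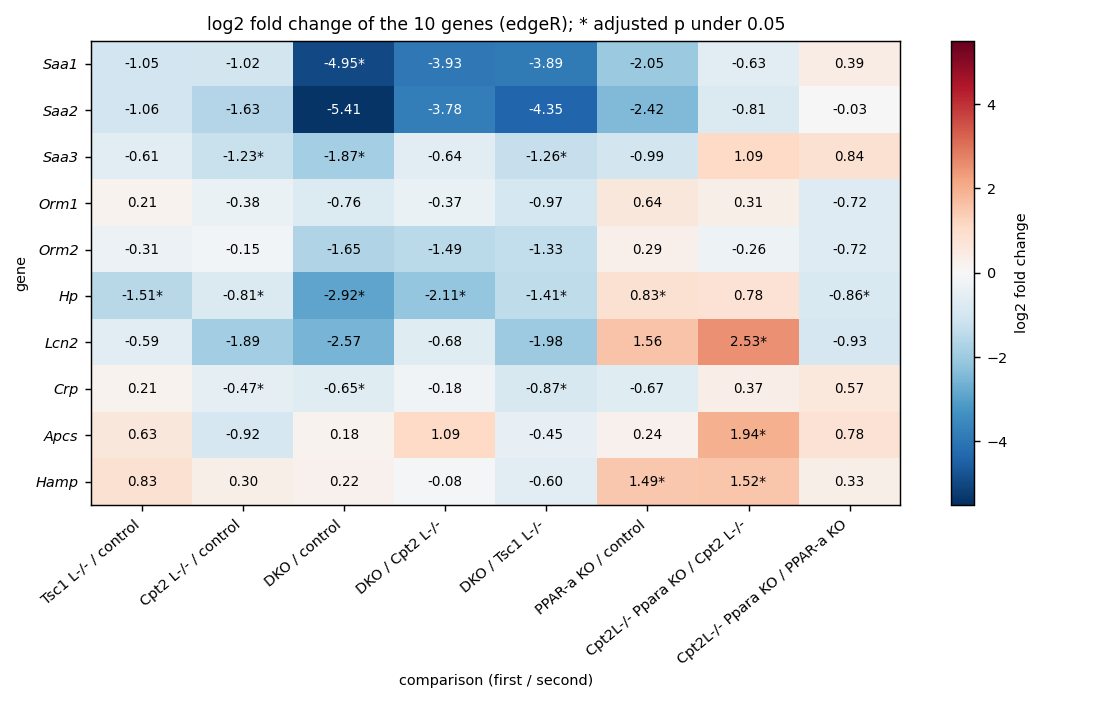
Log2 fold change (number and color) of each of the 10 genes (rows) in 8 comparisons (columns), from the edgeR fits, with a star where the adjusted p-value was under 0.05. Hp is starred in 7 of the 8 columns, and the 3 columns of DKO hold the deepest blue, in Saa1 and Saa2.

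Serum amyloid A varied most of all members. Saa1 was at 1555, 854, 39.3 and 34.5 CPM in the 4 control libraries. It was at 50.3, 957, 175 and 22.4 CPM in Tsc1 L-/- and at 23.6, 148, 18.6 and 1087 CPM in Cpt2 L-/-. The high libraries thus came from 3 genotypes, and each of these groups held libraries under 40 CPM beside them. DKO was the exception, with 11.01, 15.5, 41.3 and 13.96 CPM and no high library. PPAR-a KO libraries lay close together at 142, 153, 230 and 84.7 CPM, and Cpt2L-/- Ppara KO libraries were at 148, 562, 69.5 and 34.3 CPM.

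Between DKO and control the log2 fold change of Saa1 was −4.95 (SE 1.80, adjusted p = 0.0474 by edgeR). The groups overlapped, since DKO replicate 3 lay above control replicates 3 and 4. This call was lost in 13 of 25 alternatives, over which the value ran from −5.54 to −3.35 and the adjusted p-value from 0.000872 to 0.157. It was lost when any of 9 libraries was left out, namely control 1 or 2, Tsc1 L-/- 1 or 3, Cpt2 L-/- 2 or any DKO library. Without control replicate 1 the log2 fold change was −3.93. DKO against Cpt2 L-/- gave a log2 fold change of −3.93 (SE 1.71, adjusted p = 0.131 by edgeR) and against Tsc1 L-/- one of −3.89 (SE 1.71, adjusted p = 0.103 by edgeR), and neither passed the threshold. Both passed in DESeq2 (adjusted p = 0.0174 and 0.0116). They were −1.62 without Cpt2 L-/- replicate 4 and −2.03 without Tsc1 L-/- replicate 2, and the adjusted p-values over the alternatives reached 0.520 and 0.360.

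Saa2 followed the same libraries. It was at 1146, 433, 12.3 and 9.71 CPM in control, at 9.86, 698, 54.8 and 10.5 CPM in Tsc1 L-/- and at 12.5, 43.8, 7.03 and 476 CPM in Cpt2 L-/-. DKO was at 4.96, 7.98, 14.9 and 10.4 CPM. The libraries with the most Saa1 in control, Tsc1 L-/- and Cpt2 L-/- were also those with the most Saa2. Its log2 fold change between DKO and control was −5.41 (SE 2.07, adjusted p = 0.0576 by edgeR), short of the threshold, with adjusted p-values of 0.00132 to 0.202 over the alternatives. It passed in 5 of them (DESeq2, the fit of all 24 libraries, and without control 4, Tsc1 L-/- 2 or Cpt2 L-/- 4). The value was −3.10 and −3.15 in the limma fits and −3.998 without control replicate 1. PPAR-a KO was at 61.9, 84.6, 124 and 32.6 CPM and Cpt2L-/- Ppara KO at 50.7, 204, 31.4 and 17.0 CPM. From its lowest to its highest library Saa2 spanned 231-fold and Saa1 141-fold. The ratio of Saa2 to Saa1 counts stayed between 0.196 and 0.743, with a median of 0.444.

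The 2 transcripts were 87.3% identical, but only 4.7% of the 75-base stretches of Saa1 occurred in Saa2 and 1.0% of those of Saa2 in Saa1. Reads could be exchanged over those stretches, and how the counting treated them is not given in the sources used here. The third gene, Saa3, shared no such stretch with either. Saa3 is also a product of macrophages, and the level here was low.

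Saa3 was at 13.9, 14.9, 11.4 and 7.63 CPM in control and at 2.17, 2.63, 4.63 and 3.74 CPM in DKO. Each control library was above each DKO library, with a log2 fold change of −1.87 (SE 0.36, adjusted p = 0.000773 by edgeR) that passed in all 25 alternatives. Tsc1 L-/- libraries, at 8.35, 9.29, 7.89 and 5.73 CPM, also lay above all DKO libraries. The log2 fold change of DKO against them was −1.26 (SE 0.36, adjusted p = 0.0138 by edgeR) and was lost only in the fit of all 24 libraries (adjusted p = 0.0844). Cpt2 L-/- libraries were at 5.55, 3.49, 2.19 and 9.55 CPM, of which the highest overlapped with control. Their log2 fold change against control was −1.23 (SE 0.35, adjusted p = 0.0135 by edgeR), lost only in the fit of all 24 libraries (adjusted p = 0.0889). In PPAR-a KO Saa3 was at 4.80, 6.18, 3.503 and 9.75 CPM and in Cpt2L-/- Ppara KO at 12.7, 24.4, 3.05 and 4.29 CPM. The last group was split, with 1 library above all of control, 1 within its range and 2 below it. The interaction of Cpt2 and Ppara was 2.08 on the log2 scale for Saa3 (SE 0.78, adjusted p = 0.0608 by edgeR, range 0.0233 to 0.171 over the alternatives), 1.90 without the first libraries of both Ppara groups (adjusted p = 0.144) and 1.35 without Cpt2L-/- Ppara KO replicate 2.

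Markers of macrophages were read beside Saa3. The 9 monocyte and macrophage markers summed to 51.6 to 63.7 CPM in control and to 122 to 281 CPM in DKO, the group with the lowest mean of Saa3. That sum was carried by Cd68 (mean 8.44 CPM in control and 93.6 CPM in DKO) and Gpnmb (1.695 and 95.4 CPM), both called higher. The other 7 all had lower means in DKO, of which Lyz2 (41.7 and 21.2 CPM) was called, and the median log2 fold change of the 8 tested was −0.9999. The summed Kupffer cell markers, all 5 of the list in the table, were at 166 to 287 CPM in control and 98.2 to 139 CPM in DKO, and 4 of the 5 were lower. In bulk liver, fewer cells of a type and less RNA per cell cannot be told apart, and the part of these cells in the Saa3 levels was not tested.

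**Figure D2:**
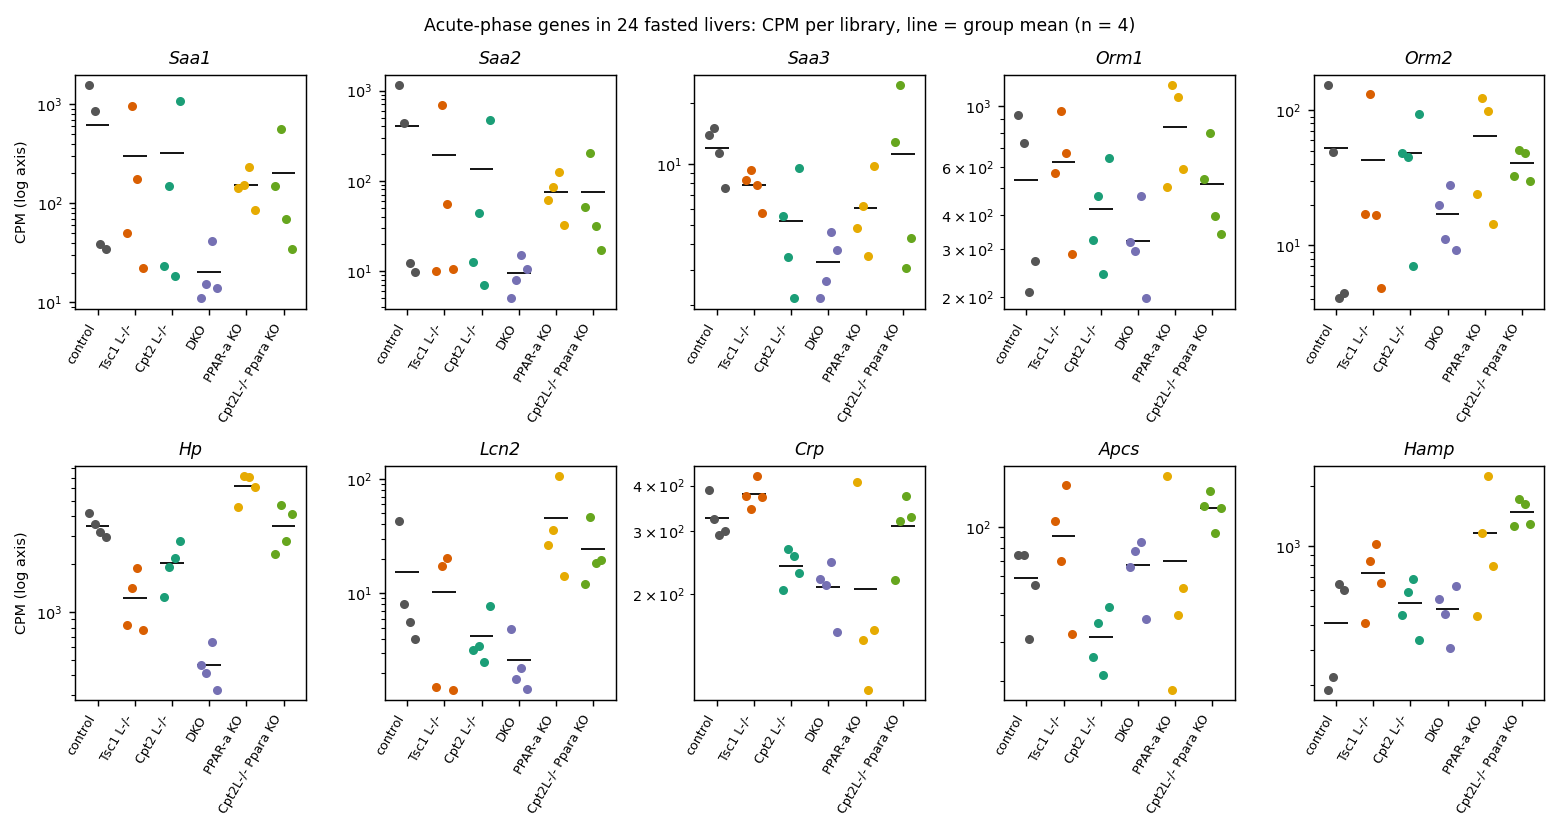
CPM (log axis) of each of the 10 genes in the 24 libraries, by genotype, with points in the order of the replicate numbers and a line at each group mean (n = 4). Saa1, Saa2 and Orm2 spread over more than a decade within control, Tsc1 L-/- and Cpt2 L-/-, while the 4 DKO libraries hold the lowest Hp of the series, at 326 to 652 CPM.

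Alpha-1-acid glycoprotein is encoded by neighbors on chromosome 4, Orm1 from 63344560 to 63348163 and Orm2 from 63362449 to 63365878. Orm1 was at 929, 731, 210 and 272 CPM in control and at 320, 295, 468 and 198 CPM in DKO. The control libraries with high Orm1 were replicates 1 and 2, which were also the ones with high Saa1. The log2 fold change of DKO against control was −0.76 (SE 0.50, adjusted p = 0.253 by edgeR) and −0.34 without control replicate 1, and the groups overlapped. Orm1 was highest in PPAR-a KO, at 505, 1192, 1075 and 590 CPM, with a log2 fold change against control of 0.64 (SE 0.45, adjusted p = 0.299 by edgeR), and of 0.82 without the first libraries of both Ppara groups (adjusted p = 0.214, range over the alternatives 0.111 to 0.577). Leaving out control replicate 1 moved it to 1.05. It was 0.37 when control 3 was left out, 0.42 for control 4 and 0.41 for PPAR-a KO 2. Tsc1 L-/- was at 569, 960, 673 and 289 CPM, Cpt2 L-/- at 325, 469, 244 and 646 CPM and Cpt2L-/- Ppara KO at 540, 799, 397 and 340 CPM. None of the 8 comparisons called it.

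Orm2 spread further than Orm1 in control, where it was at 154, 48.8, 4.06 and 4.45 CPM. It was at 17.0, 133, 16.9 and 4.86 CPM in Tsc1 L-/-, at 48.4, 45.3, 7.03 and 94.3 CPM in Cpt2 L-/- and at 20.1, 11.2, 27.9 and 9.30 CPM in DKO. All 4 groups overlapped. PPAR-a KO was at 23.8, 123, 99.4 and 14.4 CPM, while Cpt2L-/- Ppara KO had the narrowest range as a ratio, at 32.7, 50.7, 48.2 and 30.1 CPM. The log2 fold change of DKO against control was −1.65 (SE 1.23, adjusted p = 0.321 by edgeR), it was −0.15 without control replicate 1, and no comparison called Orm2. Orm1 and Orm2 transcripts were 91.0% identical and shared 97 of 701 stretches of 75 bases (13.8%), so part of the reads could be counted for either.

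Haptoglobin was the member that separated genotypes most clearly. Hp is on the minus strand of chromosome 8 from 109575130 to 109579172. Its level in control was 4220, 3601, 3165 and 2966 CPM. It was 835, 1423, 1885 and 776 CPM in Tsc1 L-/-, 1237, 1921, 2189 and 2806 CPM in Cpt2 L-/- and 467, 415, 652 and 326 CPM in DKO. Each control library was above every library of the 3 deletion groups, and each DKO library was below every library of the single deletions. Tsc1 L-/- and Cpt2 L-/- overlapped. In Tsc1 L-/- the log2 fold change was −1.51 (SE 0.29, adjusted p = 0.00485 by edgeR), a 2.84-fold difference. In DKO the log2 fold change against control was −2.92 (SE 0.31, adjusted p = 2.42e-06 by edgeR), a 7.56-fold difference.

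DKO was also below Cpt2 L-/- liver by a log2 fold change of −2.11 (SE 0.30, adjusted p = 0.000221 by edgeR) and below Tsc1 L-/- liver by −1.41 (SE 0.29, adjusted p = 0.00141 by edgeR). These 4 calls held in all 25 alternatives. The fall in Cpt2 L-/- liver was less firm, with a log2 fold change of −0.81 (SE 0.29, adjusted p = 0.0422 by edgeR). It was lost in 14 of 25 alternatives, with values of −0.99 to −0.63 and adjusted p-values of 0.0149 to 0.125. The libraries whose omission ended it were all 4 of control, Cpt2 L-/- 1, 2 and 3, and DKO 1 and 2. The interaction of Tsc1 and Cpt2 for Hp was −0.60 on the log2 scale (SE 0.41, adjusted p = 0.463 by edgeR), and −0.32 without Tsc1 L-/- replicate 3. The summed hepatocyte markers were likewise lowest in DKO. Of the 7, 3 were called lower there than in control (Alb, Serpina1c and Pck1) and none higher. Alb carried most of the fall in the sum, and the part of these cells in the Hp level was not tested.

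In PPAR-a KO liver Hp rose. It was at 4592, 7115, 7084 and 6083 CPM, each above the highest control library, with a log2 fold change of 0.83 (SE 0.28, adjusted p = 0.0315 by edgeR). Cpt2L-/- Ppara KO, at 2328, 4705, 2804 and 4119 CPM, was lower than PPAR-a KO by a log2 fold change of −0.86 (SE 0.28, adjusted p = 0.0320 by edgeR), although its replicate 2 was above the lowest PPAR-a KO library. Without the first libraries of both Ppara groups the values were 0.95 (adjusted p = 0.00751 by edgeR) and −0.83 (adjusted p = 0.0409 by edgeR). Each call was lost in 6 of 26 alternatives, 1 of them a threshold of 1 on the log2 fold change. For PPAR-a KO against control the others were the omissions of control 2, 3 or 4 and of PPAR-a KO 2 or 3 (adjusted p-values over all alternatives 0.00751 to 0.0910). For Cpt2L-/- Ppara KO against PPAR-a KO the others were the fit of the 2 groups alone and the omissions of PPAR-a KO 2 or 3 and Cpt2L-/- Ppara KO 1 or 3 (0.00752 to 0.107). Against Cpt2 L-/- liver the log2 fold change was 0.78 (SE 0.28, adjusted p = 0.0559 by edgeR). It passed under the replicate block (0.77, adjusted p = 0.0496), in DESeq2 (0.78, adjusted p = 0.0200), without Cpt2L-/- Ppara KO replicate 1 and without the first libraries of both Ppara groups (0.94 each, adjusted p = 0.0264 and 0.0194), with a range over the alternatives of 0.0194 to 0.177.

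Lcn2, on chromosome 2 from 32384633 to 32387797, was the least abundant member per length in control and in DKO. It was at 43.1, 7.97, 5.65 and 3.99 CPM in control, at 1.51, 17.4, 20.3 and 1.43 CPM in Tsc1 L-/- and at 3.203, 3.42, 2.48 and 7.67 CPM in Cpt2 L-/-. DKO was at 4.91, 1.79, 2.22 and 1.44 CPM and overlapped with control in 1 library. Its log2 fold change against control was −2.57 (SE 0.996, adjusted p = 0.0602 by edgeR), with adjusted p-values of 0.0147 to 0.319 over the alternatives. It passed in DESeq2, in the fit of all 24 libraries and without control 4, Tsc1 L-/- 1 or Tsc1 L-/- 4. That of Cpt2 L-/- was −1.89 (SE 0.96, adjusted p = 0.155 by edgeR, range 0.0925 to 0.723). Both values rested in large part on control replicate 1, without which they were −1.18 and −0.48.

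Lcn2 was higher in Cpt2L-/- Ppara KO than in Cpt2 L-/- liver. PPAR-a KO libraries were at 26.5, 35.6, 105 and 14.2 CPM and Cpt2L-/- Ppara KO libraries at 12.02, 46.5, 18.5 and 19.4 CPM. Every Cpt2L-/- Ppara KO library was above every Cpt2 L-/- library, by a log2 fold change of 2.53 (SE 0.77, adjusted p = 0.0334 by edgeR), a 5.76-fold difference. The call was lost in 6 of 26 alternatives, among them the replicate block (adjusted p = 0.0689), no filter, and the omission of Cpt2 L-/- 1, 2 or 3 or of Cpt2L-/- Ppara KO 2, with values of 1.999 to 2.98 and adjusted p-values of 0.00735 to 0.105. It remained without the first libraries of both groups, at 2.75 (adjusted p = 0.0494). PPAR-a KO against control gave 1.56 (SE 0.72, adjusted p = 0.117 by edgeR), 1.75 without the first libraries (adjusted p = 0.108), and 2.94 without control replicate 1 (adjusted p = 0.00442, range 0.00442 to 0.484). It passed there and in both limma fits (1.68 and 1.85, adjusted p = 0.0499 and 0.0466). Without PPAR-a KO replicate 3 it was 0.74. Lcn2 is also a neutrophil granule gene. The 11 neutrophil markers summed to 2.30 to 15.01 CPM in Cpt2 L-/- and to 4.57 to 9.08 CPM in Cpt2L-/- Ppara KO, with 1 of 4 tested called higher between these groups (1 of 5 without the first libraries), and their part in the Lcn2 level was not tested.

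The pentraxins lie on chromosome 1, Crp from 172698056 to 172699966 and Apcs from 172893962 to 172895054. Crp was the steadiest member, with a 3.89-fold range over the 24 libraries. It was at 389, 324, 293 and 300 CPM in control, at 375, 345, 424 and 373 CPM in Tsc1 L-/-, at 206, 267, 255 and 230 CPM in Cpt2 L-/- and at 221, 212, 246 and 157 CPM in DKO. All libraries with the Cpt2 deletion alone or with Tsc1 were below all control and Tsc1 L-/- libraries. The log2 fold change against control was −0.47 in Cpt2 L-/- (SE 0.14, adjusted p = 0.0164 by edgeR) and −0.65 in DKO (SE 0.14, adjusted p = 0.00170 by edgeR). Against Tsc1 L-/- liver DKO was lower by −0.87 (SE 0.14, adjusted p = 0.000173 by edgeR), which was lost only with a threshold of 1 on the log2 fold change. The call in DKO against control was lost with that threshold and in the fit of all 24 libraries (adjusted p = 0.0692). That in Cpt2 L-/- was lost in both, in both limma fits and without control 1 or Cpt2 L-/- 1 (adjusted p-values 0.00511 to 0.231).

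In the Ppara groups Crp depended on the library that stood apart. PPAR-a KO was at 409, 150, 109 and 160 CPM, where the first library exceeded all of control and the other 3 were below it. With all libraries the log2 fold change against control was −0.67 (SE 0.31, adjusted p = 0.110 by edgeR). It was −1.23 without the first libraries of both Ppara groups (adjusted p = 8.82e-05, range over the alternatives 8.82e-05 to 0.295). Cpt2L-/- Ppara KO was at 219, 319, 375 and 328 CPM. Its log2 fold change against PPAR-a KO was 0.57 (SE 0.31, adjusted p = 0.179 by edgeR), and 1.26 without the first libraries (adjusted p = 0.000694, range 0.000694 to 0.420). Without PPAR-a KO replicate 3 it was 0.35. The interaction of Cpt2 and Ppara for Crp was 1.04 (SE 0.43, adjusted p = 0.0862 by edgeR) and 1.74 without them (adjusted p = 0.000205, range 0.000205 to 0.159).

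Apcs, serum amyloid P, was at 74.8, 74.4, 31.1 and 54.4 CPM in control, at 107, 70.3, 154 and 32.7 CPM in Tsc1 L-/-, at 25.7, 36.7, 21.3 and 43.1 CPM in Cpt2 L-/- and at 65.96, 77.8, 85.4 and 38.2 CPM in DKO. Cpt2 L-/- was the lowest group, and it overlapped with control and with DKO. Its log2 fold change against control was −0.92 (SE 0.43, adjusted p = 0.124 by edgeR, range 0.0486 to 0.274 over the alternatives). It passed only in the fit of the 2 groups alone. That of DKO against Cpt2 L-/- was 1.09 (SE 0.43, adjusted p = 0.0950 by edgeR, range 0.0247 to 0.228). It passed in the fit of the 2 groups alone and without Tsc1 L-/- replicate 4. In Cpt2L-/- Ppara KO Apcs was at 124, 146, 94.2 and 122 CPM, each above every Cpt2 L-/- and control library. Against Cpt2 L-/- the log2 fold change was 1.94 (SE 0.49, adjusted p = 0.0143 by edgeR), a 3.84-fold difference. It was lost only without Cpt2 L-/- replicate 3 (adjusted p = 0.0541, range 0.000418 to 0.0541), and was 1.93 without the first libraries of both Ppara groups.

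PPAR-a KO held the highest and the lowest Apcs of the series, at 169, 18.3, 39.8 and 52.9 CPM. The highest was again its first library. Cpt2L-/- Ppara KO against PPAR-a KO gave a log2 fold change of 0.78 (SE 0.48, adjusted p = 0.238 by edgeR), and 1.69 without the first libraries (adjusted p = 0.00864, range 0.00387 to 0.451). Without PPAR-a KO replicate 2 it was 0.46. For the interaction of Cpt2 and Ppara the value was 1.70 (SE 0.68, adjusted p = 0.0768 by edgeR) and 2.61 without them (adjusted p = 0.00220, range 0.00121 to 0.184). Under the replicate block it was 1.84 (adjusted p = 0.0435).

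Hepcidin did not follow Saa1. It was called higher together with Hp in PPAR-a KO against control, and with Lcn2 and Apcs in Cpt2L-/- Ppara KO against Cpt2 L-/-. Hamp was at 190, 221, 643 and 599 CPM in control, where the libraries with the most Saa1 had the least Hamp. It was at 412, 839, 1025 and 652 CPM in Tsc1 L-/-, 451, 590, 686 and 338 CPM in Cpt2 L-/- and 543, 457, 309 and 628 CPM in DKO. These groups overlapped, and Tsc1 L-/- against control gave a log2 fold change of 0.83 (SE 0.40, adjusted p = 0.259 by edgeR). In PPAR-a KO Hamp was at 447, 1165, 2239 and 799 CPM. The log2 fold change against control was 1.49 (SE 0.44, adjusted p = 0.0175 by edgeR), although the lowest PPAR-a KO library lay below 2 control libraries. It was lost in the fit of the 2 groups alone and without control 1, control 2 or PPAR-a KO 3 (adjusted p-values 0.00262 to 0.0986), was 0.98 without the last of these, and was 1.76 without the first libraries of both Ppara groups.

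Cpt2L-/- Ppara KO had Hamp at 1264, 1726, 1634 and 1299 CPM, above every library of the 4 genotypes with intact Ppara. Against Cpt2 L-/- the log2 fold change was 1.52 (SE 0.44, adjusted p = 0.0257 by edgeR), a 2.87-fold difference. It was lost with no filter and without Cpt2 L-/- 1, Cpt2 L-/- 4 or Cpt2L-/- Ppara KO 2 (adjusted p-values 0.00385 to 0.0865), and stood at 1.59 without the first libraries. Erythroid markers also moved in this comparison, with 3 of 5 higher (Hba-a1 1.62, Hbb-bs 1.80 and Hbb-bt 1.87 on the log2 scale) and a summed level of 389 to 1065 CPM, against 155 to 409 CPM in Cpt2 L-/-. Of the 5 Kupffer cell markers 2 were higher (Clec4f 0.56 and Vsig4 0.68). Without the first libraries 2 erythroid markers (not Hbb-bt) and 1 Kupffer cell marker (Clec4f) were called. Their part in the Hamp level was not tested. Hamp2, which is not a member and whose product is not known to regulate iron, had another pattern. It was at 35.1, 13.4, 107 and 11.3 CPM in Tsc1 L-/- and at 1.49 to 5.72 CPM in control, with no overlap. Its log2 fold change was 3.40 (SE 0.75, adjusted p = 0.0170 by edgeR), and 2.34 without replicate 3 (adjusted p = 0.0265). Only 3.9% of the 75-base stretches of Hamp occurred in Hamp2.

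Beside genotype, the members varied between livers of the same group. To describe this, each library's log2 CPM was taken as a deviation from the mean of its group, and 9 relations with Saa1 were tested over the 24 libraries by permuting libraries within groups. Saa2 followed Saa1 with a Pearson r of 0.979 and a Spearman rho of 0.970 (permutation, adjusted p = 4.5e-05 and 9e-05). Orm1 gave r = 0.887 and rho = 0.914 (permutation, adjusted p = 4.5e-05 and 9e-05), where an unadjusted p-value of 1e-05 is the smallest that the permutations can give. Orm2 gave r = 0.818 and rho = 0.787 (permutation, adjusted p = 0.00042 and 0.00042), and Lcn2 r = 0.7 and rho = 0.709 (permutation, adjusted p = 0.000607 and 0.00139). The transcripts of these 4 secreted proteins were thus high and low in the same livers as Saa1.

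The relation was looser for the others. Saa3 gave r = 0.578 and rho = 0.563 (permutation, adjusted p = 0.00592 and 0.0150), Hp r = 0.575 and rho = 0.618 (permutation, adjusted p = 0.0161 and 0.00988) and Apcs r = 0.401 and rho = 0.520 (permutation, adjusted p = 0.0453 and 0.0316). Crp gave r = 0.0554 and rho = 0.130 (permutation, adjusted p = 0.680 and 0.535). Hamp gave r = −0.314 and rho = −0.251 (permutation, adjusted p = 0.221 and 0.352), so neither the steady pentraxin nor hepcidin had a detectable relation. Without Cpt2 L-/- replicate 4 and Tsc1 L-/- replicate 2, the libraries farthest out in Saa1, r was 0.972 for Saa2, 0.887 for Orm1, 0.785 for Orm2, 0.651 for Lcn2, 0.518 for Saa3, 0.499 for Hp, 0.431 for Apcs, 0.121 for Crp and −0.326 for Hamp. The labels give no collection date or batch by which these relations could be split.

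**Figure D3:**
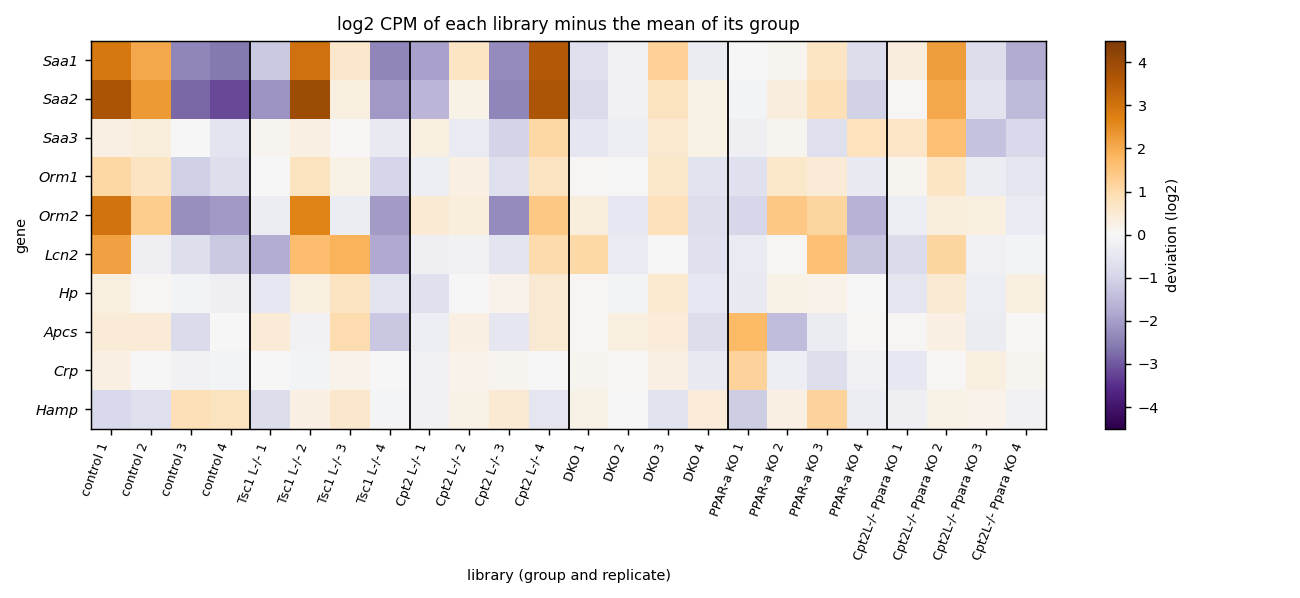
Deviation of log2 CPM from the group mean (color) for the 10 genes (rows) in each library (columns, grouped by genotype). The Saa1, Saa2, Orm1 and Orm2 rows are orange together in control 1, Tsc1 L-/- 2 and Cpt2 L-/- 4, while the DKO columns are paler.

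**Figure D4:**
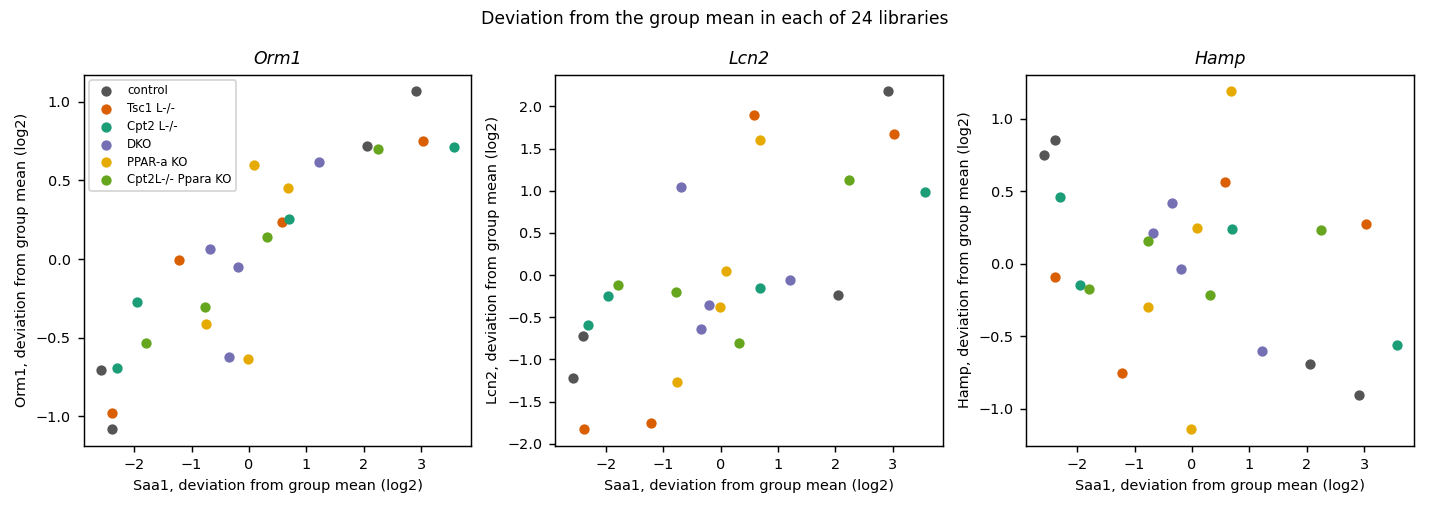
Deviation from the group mean (log2) of Orm1, Lcn2 and Hamp (y axes) against that of Saa1 (x axes), 1 point per library and 1 color per genotype. Orm1 rises along Saa1 (r = 0.887), Lcn2 does so with more scatter (r = 0.7) and Hamp does not (r = −0.314).

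Over the plain log2 CPM of the 24 libraries, genotype differences included, 12250 genes with a mean of at least 1 CPM were ranked by their likeness to a member. For Saa1 the closest non-members were Ambp, the precursor of alpha-1-microglobulin (r = 0.83), the heme binder Hpx (0.77), Arl4d (0.72), Tmem176b (0.70) and Arl13b (0.69). For Orm1 they were Bcl2l1 (0.82), Arl4d (0.80), Itih3 (0.79), Hpx (0.79) and Mt2 (0.78). Hpx and Arl4d appeared for both. For Hamp they were Trpm7 (0.81), Zfp26 (0.80), Papd4 (0.78), Fam126b (0.77) and BC005561 (0.76), and for Apcs Gm5549 (0.83), Gnat2 (0.76), Eid1 (0.75), Iqcg (0.74) and Fam187b (0.73). These values are descriptions over libraries that share their scaling and their genotypes.

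The wider acute-phase genes, 23 positive acute-phase proteins outside the members, were mostly lower in DKO liver. Of them 15 were lower than in control and 1 was higher, with a median log2 fold change of −1.36, where over all genes 17.1% were lower and 19.3% higher. Markers of other cells were lower there as well, 4 of 4 of stellate cells (139.6 to 177.1 CPM summed, against 205 to 272 CPM in control), 3 of 4 of endothelium (144.9 to 240 CPM, against 239 to 267 CPM) and 3 of 7 of hepatocytes. Their part in these levels was not tested. The 4 largest changes were Saa4, the constitutive serum amyloid A (log2 fold change −3.92, edgeR adjusted p = 0.000102), the fibrinogen chains Fgg (−3.04, edgeR adjusted p = 0.000309) and Fga (−2.70, edgeR adjusted p = 4.15e-05), and the protease inhibitor Serpina3m (−2.49, edgeR adjusted p = 0.000440). Being constitutive, Saa4 does not report induction, but it is in all counts of this list. Against Cpt2 L-/- liver 6 of the 23 were lower and none was higher, led by Fgg at −1.64 (7.4% of all genes lower). Of the markers, 3 of 5 Kupffer cell, 2 of 4 endothelium, 2 of 7 hepatocyte, 1 of 4 stellate cell and 1 of 2 T and B cell markers were lower. Higher were 1 hepatocyte and 2 of 8 monocyte and macrophage markers, and their part was not tested. Against Tsc1 L-/- liver 15 of the 23 were lower and 1 higher (15.2% and 16.9% of all genes), and the counts were equal without Tsc1 L-/- replicate 3 (12.8% and 14.3%). Lower there were also 4 of 7 hepatocyte markers (3 without replicate 3), 3 of 5 of Kupffer cells and 1 of 4 of endothelium (0 without it). Of 8 monocyte and macrophage markers 2 were higher and 1 lower, and their part was not tested. In Cpt2 L-/- liver 8 of the 23 were lower and 1 higher than in control (14.9% and 16.2% of all genes), with Saa4 at −3.76, Serpina3m at −2.29 and Serpina3n at −1.67, while the endotoxin co-receptor Cd14 was higher at 1.97. The summed hepatocyte markers of all 4 Cpt2 L-/- libraries (40260 to 62260 CPM) were below those of control, with 2 of 7 called lower, and of the 8 monocyte and macrophage markers 2 were higher (Cd68 and Gpnmb) and 2 lower. Their part was not tested. In Tsc1 L-/- liver Hamp2 was the only one called, and it rose. Without replicate 3 it was joined by 2 that were lower (2.71% of all genes lower). Saa4 was at 10.7 to 19.3 CPM in all 8 Cpt2 L-/- and DKO libraries and at 154 to 274 CPM in control, so it separated groups in which Saa1 overlapped.

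In PPAR-a KO liver the control level was exceeded by 7 of the 23, and 2 were lower (15.9% and 13.2% of all genes). The log2 fold changes were 4.58 for Orm3 (edgeR adjusted p = 0.00263), 3.74 for Mt1 and 3.62 for Mt2, the metal-binding metallothioneins, and −2.32 for Saa4. Orm3 was at 9.18, 142, 145 and 4.74 CPM there, high in the 2 libraries in which Orm1 and Orm2 were also highest. Of the 23, 3 were higher in Cpt2L-/- Ppara KO than in Cpt2 L-/- and none was lower (Serpina3m 1.65, Fgb 1.25 and Steap4 0.86 on the log2 scale), where over all genes 10.3% were higher. Against PPAR-a KO 14 were lower and none higher, with 12.6% of all genes lower, among them Orm3 (−3.00), Fgg (−2.02), Fga (−1.90) and Serpina3n (−1.77). Between these groups 3 of 8 monocyte and macrophage markers and 2 of 5 Kupffer cell markers were higher, and the cholangiocyte marker Sox9 was lower (−3.07). Summed hepatocyte markers were at 44540 to 63360 CPM in Cpt2L-/- Ppara KO and 60710 to 85410 CPM in PPAR-a KO, with a median log2 fold change of −0.37 over the 7, and the part of these cells was not tested. Without the first libraries of both Ppara groups, 9 were higher and 1 was lower in PPAR-a KO than in control, beside 20.3% and 17.5% of all genes. Then 5 were higher and none lower in Cpt2L-/- Ppara KO than in Cpt2 L-/- (7.71% of all genes higher), and 12 were lower and none higher than in PPAR-a KO (11% lower). Of the markers, 5 of 8 monocyte and macrophage and 2 of 5 Kupffer cell markers were then higher than in PPAR-a KO. PPAR-a KO itself then had 1 of 8 monocyte and macrophage markers higher than control and 4 lower, and 2 of 5 Kupffer cell markers lower. It also had 1 cholangiocyte, 1 erythroid and 1 of 7 hepatocyte markers higher. Lower were 1 hepatocyte, 1 stellate cell and 1 T and B cell marker.

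**Figure D5:**
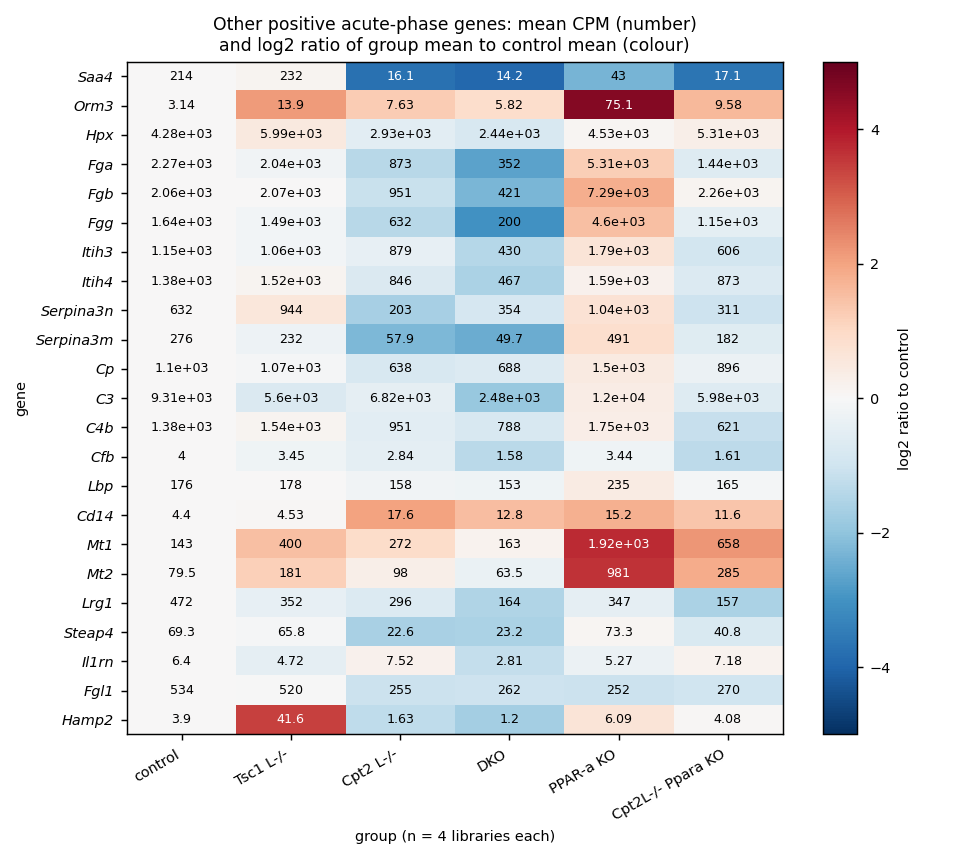
Mean CPM (number, n = 4 libraries) of the 23 other positive acute-phase genes (rows) in the 6 genotypes (columns), colored by the log2 ratio of the group mean to the control mean. The fibrinogen chains Fga, Fgb and Fgg are light blue in Cpt2 L-/-, darker blue in DKO and orange in PPAR-a KO, and Hamp2 is red in Tsc1 L-/- (41.6 CPM, against 3.895 CPM in control).

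Negative acute-phase proteins, which the liver normally makes less of during inflammation, were followed in 8 genes. Of these, 4 were lower in Cpt2 L-/- and 4 in DKO than in control and none was higher. In DKO these were Serpina6 (log2 fold change −4.86), Alb (−1.78), Rbp4 (−0.90) and Ahsg (−0.77). Against Cpt2 L-/- liver DKO had 1 higher and 1 lower (10.9% and 7.4% of all genes), and against Tsc1 L-/- liver 5 lower (15.2%), or 4 without Tsc1 L-/- replicate 3 (12.8%). The shares over all genes were those given for these comparisons above, 14.9% lower in Cpt2 L-/- and 17.1% lower in DKO. Serpina6 (2.01) and Ahsg (1.35) were higher in Cpt2L-/- Ppara KO than in Cpt2 L-/- (10.3% of all genes). None was called in Tsc1 L-/- or PPAR-a KO against control, or in Cpt2L-/- Ppara KO against PPAR-a KO. The Ppara counts were the same without the first libraries.

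The cytokine genes themselves had few counts, 0 to 4 of Il6, 1 to 45 of Il1b and 0 to 6 of Tnf per library. Il1b alone of these was tested. At means of 0.892 CPM in control, 0.227 CPM in PPAR-a KO and 1.699 CPM in Cpt2L-/- Ppara KO, it was lower in PPAR-a KO than in control (log2 fold change −1.93, edgeR adjusted p = 0.0452) and higher in Cpt2L-/- Ppara KO than in PPAR-a KO (2.81, edgeR adjusted p = 0.0103). It lies below the 1 CPM asked of named genes and is named after its values were seen. Of 29 genes of cytokine signalling to hepatocytes 26 were tested. DKO liver had 10 lower and 2 higher than control, beside 17.1% and 19.3% of all genes, led by the receptors Il1r1 (log2 fold change −1.41), Lifr (−1.39), Il1rap (−1.35) and Il6ra (−1.23). In Cpt2 L-/- 3 were lower and 4 higher, beside 14.9% and 16.2% of all genes, with Il6ra at −1.15, Lifr at −1.03, Il1rap at −0.91 and the NF-kB subunit Relb at 1.01. None was called in Tsc1 L-/-, and 2 were lower there without replicate 3 (2.71% of all genes). DKO had 5 lower than Cpt2 L-/- and none higher, beside 7.4% and 10.9% of all genes. It had 9 lower and 1 higher than Tsc1 L-/- (15.2% and 16.9%), or 7 and 1 without Tsc1 L-/- replicate 3 (12.8% and 14.3%). PPAR-a KO had 5 higher and 3 lower than control (15.9% and 13.2% of all genes), with Il1r1 at 2.25, the NF-kB subunit Rela at 1.15, Stat3 at 0.79 and Cebpa at −0.77. Il1b was among the 3 lower. Cpt2L-/- Ppara KO had 1 higher than Cpt2 L-/-, the Stat3 target and feedback inhibitor Socs3 (1.41), and 3 lower (10.3% and 8.01% of all genes). Against PPAR-a KO it had 1 higher, Il1b, and 8 lower, led by Il1r1 (−2.19), beside 12.9% and 12.6% of all genes. Without the first libraries PPAR-a KO had 5 higher and 2 lower than control (20.3% and 17.5% of all genes), and Cpt2L-/- Ppara KO 1 higher and none lower than Cpt2 L-/- (7.71% and 7.22%) and 1 higher and 7 lower than PPAR-a KO (10.1% and 11%). Il1b was no longer called in PPAR-a KO against control.

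Hepcidin regulation by iron and bone morphogenetic proteins was followed in 22 genes. In PPAR-a KO, where Hamp was higher, 6 of these were higher and none was lower than in control, with 15.9% of all genes higher. The log2 fold changes were 1.63 for Hfe2, the co-receptor hemojuvelin, 1.12 for Smad1, 0.75 for Atoh8 and 0.57 for Smad4. In Cpt2L-/- Ppara KO against Cpt2 L-/-, where Hamp was also higher, 1 was higher (Fth1, the ferritin heavy chain, 0.92) and 1 lower (Neo1, −0.89), beside 10.3% and 8.01% of all genes. Against PPAR-a KO, where mean Hamp was 1481 CPM against 1163 CPM, Cpt2L-/- Ppara KO had 2 higher and 4 lower (12.9% and 12.6% of all genes), led by Smad1 (−0.96), Fth1 (0.92), Acvr1 (−0.79) and Neo1 (−0.78). Hfe2, named after its values were seen, was also lower (−0.47). Without the first libraries the counts were 7 higher and none lower in PPAR-a KO (20.3% and 17.5% of all genes), 2 higher and 2 lower in Cpt2L-/- Ppara KO against Cpt2 L-/- (7.71% and 7.22%), and 1 higher and 1 lower against PPAR-a KO (10.1% and 11%). The last 2 were Fth1 and Acvr1. Smad1, Neo1 and Hfe2 were then no longer called against PPAR-a KO (adjusted p = 0.0640, 0.0694 and 0.0619 by edgeR). Cpt2 L-/- had 4 higher and 2 lower than control, beside 16.2% and 14.9% of all genes, with Hfe2 at 0.91, Acvr1 at −0.66, Atoh8 at 0.64 and Smad4 at 0.59. This comparison and that of PPAR-a KO share the control libraries. DKO had 4 higher and 4 lower, beside 19.3% and 17.1% of all genes, with Fth1 at 1.55, the ferritin light chain Ftl1 at 1.20, Atoh8 at 0.77 and the transferrin receptor Tfr2 at −0.71. Hfe2, named here after its values were seen, was higher in DKO as well (0.65). Hamp was not called in either of these. Fth1 (0.77) and Ftl1 (0.61) were the 2 genes called in Tsc1 L-/-, both higher (4.16% of all genes). Ferritin is controlled mainly in translation, and no protein was measured in these files.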

How the data were processed

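Liver RNA was prepared with TRIzol, made into stranded mRNA libraries and read as single 75-base reads. The authors deposited whole-number counts per gene, not normalized, for 35275 genes, and FPKM values made from them by gene length and library total. The coordinates of the file fit GRCm38, although the submitters' processing notes name mm8 and mm9, with STAR 2.5, HTSeq 0.6.1, Bowtie 0.12.2, TopHat, STAR-Fusion, DESeq2 and edgeR, without roles. Columns of per-sample values without a sample numbered 0. Duplicate libraries were looked for within each group, and none was found.

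The count table was fitted in edgeR 4.0.16 (R 4.3.3): filterByExpr with a minimum count of 10 and a minimum total of 15, TMM, and the robust quasi-likelihood test without covariates. Control, Tsc1 L-/-, Cpt2 L-/- and DKO entered 1 fit of 16 libraries (13641 genes), and control, Cpt2 L-/-, PPAR-a KO and Cpt2L-/- Ppara KO another (13615 genes). The Benjamini-Hochberg adjustment ran over all genes of a fit, and an adjusted p-value under 0.05 was a call. CPM used TMM over 24 libraries, and log2 CPM a prior count of 2. Correlations used 100000 permutations within groups, two-sided. The scripts were tested on simulated data.

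The members, gene lists, markers and motifs were chosen with earlier results of these data known. All members are named, and of each list at most 4 called genes per comparison, by absolute log2 fold change and a mean of at least 1 CPM. One gene of the positive acute-phase list is not reported here and was left out of its counts. Likeness was by Pearson correlation, 5 genes for each of Saa1, Orm1, Hamp and Apcs. Promoters came from a RefSeq table (GRCm38.p6). Alternatives were RLE factors, no filter, DESeq2 1.42.0, all 24 libraries or 2 groups in the fit, a replicate block, limma 3.58.1 on log2(FPKM + 1) and log2(FPKM + 0.1), a call only beyond a log2 fold change of 1 in size, and each replicate left out. Replicates of groups outside a comparison were left out too, and these reach it only through the shared spread, filter and scaling. The threshold of 1 cannot end a call whose value lies beyond it. The omission of both first Ppara libraries, and that of Tsc1 L-/- replicate 3 for the gene lists, was chosen after seeing the data. Figures were drawn with matplotlib 3.10.9.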

Additional observations from a re-analysis of the deposited data

How the results depend on the processing

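Of the 41 named fold changes, none reversed in any of 1039 alternative values, of which 930 stayed on their side of the threshold, 65 lost a call and 44 gained one. The number of members called in Cpt2 L-/- against control went from 3 to 0 with all 24 libraries in the fit and to 1 in both limma fits and with the added log2 threshold, and ran from 1 to 3 when single replicates were left out. The fit of 2 groups added Apcs there. In DKO against Cpt2 L-/- it went from 1 to 3 in DESeq2 and to 2 in the fit of 2 groups, and from 1 to 2 over left-out replicates. In DKO against Tsc1 L-/- it went from 3 to 5 in DESeq2, while Crp was lost with the added log2 threshold and Saa3 with all 24 libraries. In PPAR-a KO against control it went from 2 to 1 with the added log2 threshold, to 3 in both limma fits (with Lcn2) and without the first libraries (with Crp), and from 0 to 3 over left-out replicates. In Cpt2L-/- Ppara KO against Cpt2 L-/- it went from 3 to 1 with no filter, and from 1 to 4 over left-out replicates. Against PPAR-a KO it went from 1 to 0 in the fit of 2 groups and with the added log2 threshold and to 3 without the first libraries of both Ppara groups, and from 0 to 3 over left-out replicates. The interaction of Cpt2 and Ppara went from 0 to 2 in DESeq2, with all 24 libraries and without the first libraries, to 1 in both limma fits and with the replicate block, and from 0 to 2 over left-out replicates. DKO against control went from 4 to 6 in DESeq2, which added Saa2 and Lcn2, and to 5 with all 24 libraries, which added both and lost Crp, and ran from 3 to 6 over left-out replicates, and Tsc1 L-/- against control stayed at 1. The causes were not tested.

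The replicate numbers did not pair the libraries: 11 of 60 same-numbered pairs correlated above 0.1 in their deviations from the group means. With the replicate block, 3 members were called in DKO against control in place of 4, and 1 in the interaction of Cpt2 and Ppara in place of 0. In Cpt2L-/- Ppara KO against Cpt2 L-/- the block lost Lcn2 and gained Hp. The others were Saa1 (−4.68, adjusted p = 0.157 by edgeR) and Apcs (1.84), and no other member call changed. The median log2 fold change of the members in DKO against control was −1.28 with the block, −0.98 and −1.10 in the limma fits and −0.86 without control replicate 1. In Cpt2L-/- Ppara KO against Cpt2 L-/- it was 1.45 without Cpt2 L-/- replicate 4, in place of 0.58. In PPAR-a KO against control it was 0.27 with all libraries and −0.05 without the first libraries.

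No member had fewer than 23 counts in any library, while Il6 and Tnf had 0 to 6. Saa1, Saa2, Orm2 and Lcn2 ranged over 10-fold or more within control. How depth or the number of libraries bears on the calls was not tested.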
